A study of Mus musculus with 10 samples.

Results

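MSC III and MSC V are preparations of mouse bone marrow mesenchymal stromal cells, and their direct difference was followed across genes. The comparison used the 4 arrays titled MSC III or MSC V, 2 per preparation, of the 10 arrays of the series, and 10971 of 19938 named genes were tested. All 5 preparations, MSC I to MSC V, came from the bone marrow of female C57BL/6J mice aged 6 to 8 weeks. The cells were at passage 16 to 17 and grew in murine MesenCult medium with its mesenchymal supplement and antibiotics. The labels describe the 2 preparations alike: they name no difference of genotype, treatment or time between MSC III and MSC V, and no preparation is called a control. They also do not say whether the replicates of a preparation were separate cultures. The p-values therefore measure only how far the arrays of a preparation spread, which may be technical, and 2 arrays per preparation limit the precision. Levels are log2 values of the deposited table, where 1 log2 is a fold of 2. A level under the median of the table, 6.55, is low, which does not mean that the transcript was missing.

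Mesenchymal stromal cells grow attached to plastic, look like fibroblasts and can turn into bone, fat and cartilage cells, and in the marrow they supply blood stem cells with factors such as Cxcl12. Cultured stromal cells keep a record of body position in their Hox genes, which lie in 4 clusters and encode transcription factors that pattern the embryo along its axes. Imprinted genes are expressed from the copy of one parent, and several of them act on growth through insulin-like growth factor 2.

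The stromal label was checked against 13 markers, of which 12 had a probe set of their own and 9 lay above 6.55 on all 4 arrays. Cxcl12, the chemokine that retains blood stem cells, stood at 12.64 and 12.47 in MSC III and at 12.37 and 12.50 in MSC V. Vcam1, an adhesion receptor of stromal cells, stood at 10.08 and 10.08 in MSC III and at 9.97 and 9.92 in MSC V. The arrays of the 2 preparations lay close together for both genes. Eng, the endoglin receptor often used to define these cells, was low on all 4 arrays (5.64 to 5.76), and Thy1 was above 6.55 only on MSC III replicate 1 (6.82). All 8 leukocyte markers, all 8 endothelial markers and all 4 epithelial markers were at or below 6.55 on all 4 arrays.

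MSC III and MSC V were the closest of the 10 pairs of preparations by the number of genes with means at least 1 log2 apart. That number was 531, against 669 for MSC II and MSC III and 907 for MSC II and MSC V. By the median absolute difference over all tested genes they were not the closest: MSC II with MSC III (0.2379) lay just under MSC III with MSC V (0.2384). A gene was called where the adjusted p of limma (Benjamini-Hochberg over all tested genes) was under 0.05 and the difference at least 1 log2. Between MSC III and MSC V 227 genes were called (2.07% of those tested), 113 higher in MSC III (1.03%) and 114 higher in MSC V (1.04%). The same rule called 331 genes between MSC III and MSC II (3.02%) and 610 between MSC V and MSC II (5.56%), comparisons that share arrays with the first. Both arrays of 1 preparation lay above both of the other for all 227 called genes, and for 6195 (56.5%) of all tested genes, so that such a gap alone says little about a gene. Among the called genes 8 passed the filter on low values (at least 2 arrays above 6.55) through the 2 arrays of MSC III alone and 10 through those of MSC V alone. Such genes had to differ, and for those named in the text only the difference and its SE are given, as a description. Counts of called list members given below include such genes and are likewise a description. For 8354 genes, 76.1% of those tested, the 95% interval of the difference between MSC III and MSC V lay within 1 log2 on either side of 0.

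The sequences below are shown because the Hox clusters and the imprinted gene Grb10 carried differences described further on. The table of RefSeq promoters (GRCm38.p6) held 29 of the 40 genes with the largest differences and 6 of the 17 called Hox genes. Each promoter is the 250 bases before an annotated start, read 5′ to 3′ on the strand of the gene, with each CG pair (the site of DNA methylation in mammals) in capitals. CG reads the same on both strands. Grb10 has more than 1 annotated start, and both windows held by the table are given.
Grb10, first window (chr11:12037421-12037670, minus strand): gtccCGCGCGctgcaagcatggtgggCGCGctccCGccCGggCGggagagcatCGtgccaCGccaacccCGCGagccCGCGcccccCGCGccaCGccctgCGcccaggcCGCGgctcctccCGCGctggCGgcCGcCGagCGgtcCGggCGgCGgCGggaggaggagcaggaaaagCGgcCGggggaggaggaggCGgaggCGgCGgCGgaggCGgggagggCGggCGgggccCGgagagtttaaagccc
Grb10, other window (chr11:12027972-12028221, minus strand): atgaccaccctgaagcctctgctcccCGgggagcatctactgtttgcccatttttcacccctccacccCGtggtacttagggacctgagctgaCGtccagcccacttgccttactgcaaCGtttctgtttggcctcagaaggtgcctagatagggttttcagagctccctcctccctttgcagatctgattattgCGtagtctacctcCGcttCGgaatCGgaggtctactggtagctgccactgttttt
Hoxc4 (chr15:103034145-103034394, plus strand): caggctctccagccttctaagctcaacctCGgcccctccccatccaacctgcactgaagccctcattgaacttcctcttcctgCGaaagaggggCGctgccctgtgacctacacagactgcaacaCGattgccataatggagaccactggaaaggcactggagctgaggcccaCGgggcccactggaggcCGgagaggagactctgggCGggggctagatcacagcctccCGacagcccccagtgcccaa
Hoxa13 (chr6:52260881-52261130, minus strand): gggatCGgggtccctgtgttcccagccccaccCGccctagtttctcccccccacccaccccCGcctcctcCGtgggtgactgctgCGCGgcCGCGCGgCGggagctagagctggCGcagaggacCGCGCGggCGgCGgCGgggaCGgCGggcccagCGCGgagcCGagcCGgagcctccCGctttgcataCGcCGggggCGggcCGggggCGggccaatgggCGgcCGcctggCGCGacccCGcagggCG
The first Grb10 window held 40 CG pairs, a number reached by 1.31% of all 32851 windows of this length, and the other held 8, reached by 43.0%. The Hoxa13 window held 35 (reached by 2.97%) and the Hoxc4 window 8. Methylation was not measured, and these counts describe the sequence only.

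The Hox clusters also hold the genes of a microRNA family, whose mature forms are shown because a precursor differed between the preparations. Capitals mark the seed, bases 2 to 8, which pairs with target transcripts.
mmu-miR-196a-5p, from Mir196a-2 of the Hoxc cluster (chr15:102973365-102973386, plus strand): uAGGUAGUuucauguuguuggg
mmu-miR-196b-5p, from Mir196b of the Hoxa cluster (chr6:52230129-52230150, minus strand): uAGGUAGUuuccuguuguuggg
Both share the seed, and Mir196a-1 of the Hoxb cluster (chr11:96265187-96265208, plus strand) gives the same mature 196a sequence.

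Genes of the Hoxc cluster were higher in MSC III, and genes of the Hoxb cluster were higher in MSC V. Of 9 tested Hoxc genes 7 were called higher in MSC III and 0 lower, with a median difference of 1.91 log2 over the 9, against 0.02 over all tested genes, of which 1.03% were called in that direction. Hoxc5 stood at 8.48 and 8.87 in MSC III and at 6.21 and 6.38 in MSC V, a difference of 2.38 ± 0.21 (SE, n = 2 against 2, limma adjusted p = 0.00158). Hoxc13, the last gene of the cluster and one active in hair and nail, stood at 8.63 and 9.17 in MSC III and at 6.64 and 6.73 in MSC V (2.22 ± 0.21, limma adjusted p = 0.00197). Hoxc4, at the other end, stood at 6.71 and 7.11 against 5.24 and 5.29 (1.65 ± 0.18, limma adjusted p = 0.00456). MSC III was thus the higher preparation for these 3 genes at both ends of the cluster. Hoxc8 (2.51), Hoxc9 (2.10), Hoxc6 (1.91) and Hoxc11 (1.28) were called as well, whereas Hoxc10 (1.58 ± 0.40, limma adjusted p = 0.0746) and Hoxc12 (0.64 ± 0.33, limma adjusted p = 0.29) were not. Hoxc5 was also high outside this pair, at 8.74 to 9.71 on the 6 arrays of MSC I, II and IV, so that only MSC V was low for this gene. Without replicate 2 of MSC III 3 of the 9 were called, without replicate 2 of MSC V 4, and without replicate 1 of MSC III or of MSC V 6. On the 4 arrays of the pair alone 4 were called.

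The precursor Mir196a-2, named after its values were seen, lies in the same cluster and stood at 6.99 and 7.24 in MSC III and at 5.50 and 5.63 in MSC V. The groups did not overlap (1.55 ± 0.18, limma adjusted p = 0.00548), and without replicate 2 of MSC III the adjusted p of limma was 0.056. Mir196a-1 was low in both (5.06 to 5.13), and Mir196b stood at 6.01 to 6.12 in both. The probe set reads the precursor region, and the mature microRNA was not measured.

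In the Hoxb cluster 5 of 7 tested genes were called higher in MSC V, a direction in which 1.04% of all tested genes were called, and 0 higher in MSC III, with a median difference of -1.28. Hoxb9, the most 5′ of these genes, stood at 6.09 and 6.46 in MSC III and at 8.84 and 8.44 in MSC V (-2.37 ± 0.25, limma adjusted p = 0.00383). Hoxb6 stood at 5.25 and 4.95 in MSC III and at 6.27 and 6.34 in MSC V (-1.21 ± 0.14, limma adjusted p = 0.00459). The arrays of MSC V lay above those of MSC III for both, but all values of Hoxb6 were under the table's median. Hoxb2, Hoxb3 and Hoxb5 were called with differences of -1.30, -1.28 and -1.31, and leaving out an array changed their calls: 2 of the cluster were called without replicate 1 of MSC III, without replicate 2 of MSC III or without replicate 1 of MSC V, 4 without replicate 2 of MSC V or either array of MSC I, and 3 without an array of MSC II or IV. On the 4 arrays of the pair alone 1 was called. Hoxb6 was not tested without an array of MSC II. MSC II had the highest level of Hoxb9 (10.63 and 10.51).

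The Hoxa cluster was divided. Hoxa9 was higher in MSC III, at 9.27 and 9.47 against 6.41 and 6.88 (2.72 ± 0.27, limma adjusted p = 0.00266). Hoxa13, which patterns the most distal limb and the genital tract, was higher in MSC V, at 8.29 and 8.84 against 6.13 and 5.83 (-2.58 ± 0.19), and passed the filter through MSC V alone. MSC III and the 3 other preparations were all low for Hoxa13, with 5.25 to 5.42 on the arrays of MSC I, II and IV. Hoxa11 and Hoxa7 were also called higher in MSC V (-1.45 and -1.31), so that 1 of 10 tested genes was called in MSC III and 3 in MSC V, against 1.03% and 1.04% of all tested genes. Without an array of MSC V Hoxa13, which is 1 of those 3, was not tested. The call of Hoxa7 was lost with any 1 of the 4 arrays of MSC III and V left out (adjusted p of limma 0.07 to 0.0935), and that of Hoxa11 without replicate 1 of MSC III or either array of MSC V (0.0866 to 0.0994). Hoxa2 to Hoxa6 and Hoxa10 were not called. Of the Hoxd genes only Hoxd8 passed the filter on low values, at 6.28 and 6.02 in MSC III and 4.91 and 5.15 in MSC V (1.12 ± 0.15, limma adjusted p = 0.00926). All 4 values were under the table's median, so that Hoxd8 was not tested on the arrays of the pair alone or without an array of MSC IV. It lost its call without replicate 1 of MSC III or of MSC V, where the difference was 0.99 and 1.00.

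**Figure D1:**
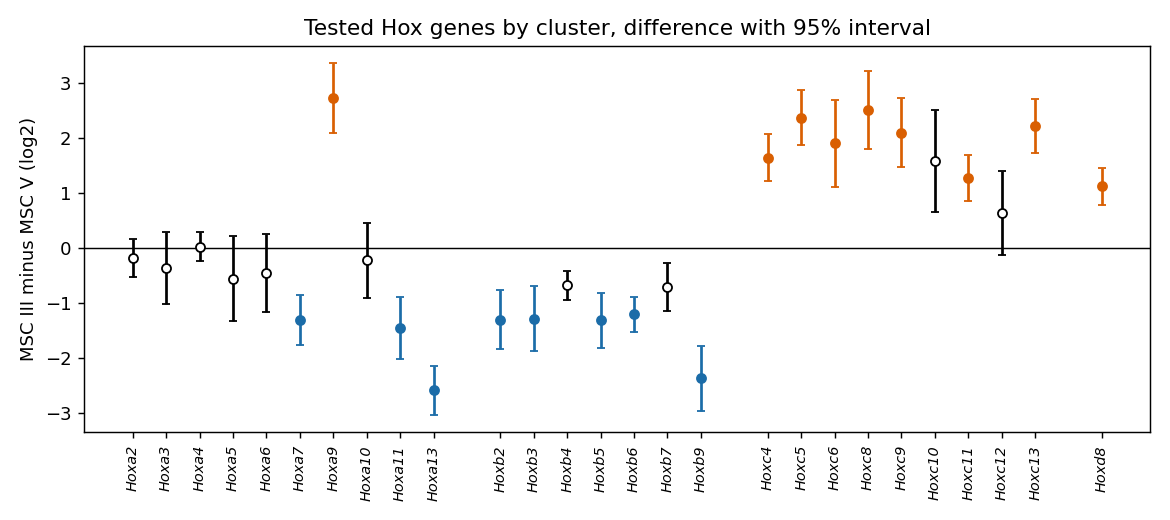
Difference between MSC III and MSC V (log2, vertical axis) for each tested Hox gene in the order of its cluster, with the 95% interval of the fit. Filled orange points are called higher in MSC III, filled blue points higher in MSC V and open points are not called. All 9 Hoxc points lie above 0 and all 7 Hoxb points below it.

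Other transcription factors that mark body position differed too. Of 29 tested members of that list 5 were called higher in MSC III and 1 higher in MSC V, against 1.03% and 1.04% of all tested genes, with a median of 0.26. Tfap2a and Pax9, described below, are among the called members and passed the filter through 1 preparation alone. Without replicate 1 or 2 of MSC III 1 and 2 members were called higher in MSC III, and without replicate 1 or 2 of MSC V 3 and 3. Pitx1, which specifies the hind limb, stood at 9.15 and 9.08 in MSC III and at 5.32 and 5.74 in MSC V (3.59 ± 0.20, limma adjusted p = 0.000301). Tfap2a, a factor of neural crest and skin, stood at 8.03 and 8.03 in MSC III and at 5.16 and 5.15 in MSC V (2.87 ± 0.10). The 8 arrays outside MSC III were all low for Tfap2a (5.09 to 5.24 on MSC I, II and IV), so that it passed the filter through MSC III alone and was not tested without an array of it. Pitx1 was low only in MSC V and nearest to it in MSC IV (6.72 and 6.68). Pax9, of pharyngeal pouches and teeth, was higher in MSC V, at 6.82 and 6.89 against 5.46 and 5.38 (-1.43 ± 0.12). It passed the filter through MSC V alone and was not tested without an array of it. Meis2, a cofactor of Hox proteins, was higher in MSC III by 2.16 ± 0.25, and without replicate 1 of MSC III its adjusted p by limma was 0.0504. Foxf1 (2.35) and Mab21l2 (2.20) were called with all arrays and lost the call with any 1 of the 4 arrays of MSC III and V left out (adjusted p of limma 0.0681 to 0.113 and 0.0782 to 0.104).

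Imprinted and insulin-like growth factor genes held some of the largest differences of the comparison, in opposite directions. Grb10, an imprinted adaptor that damps signalling from insulin and insulin-like growth factor receptors and whose promoters are printed above, stood at 5.03 and 5.31 in MSC III and at 11.50 and 11.14 in MSC V (-6.14 ± 0.37, limma adjusted p = 0.000353). Asb4, an imprinted gene of the Peg10 domain, stood at 5.72 and 5.53 in MSC III and at 10.37 and 10.35 in MSC V (-4.74 ± 0.25, limma adjusted p = 0.000292). The positions of the preparations differed between these genes: Grb10 was low in MSC I, II and III and stood at 8.63 and 7.62 in MSC IV, whereas Asb4 was low in MSC III alone, the other 6 arrays lying at 8.96 to 11.24. Of 24 tested imprinted genes 2 were called in each direction, against 1.03% and 1.04% of all tested genes, with a median of -0.09.

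Igf2, the imprinted growth factor, stood at 10.26 and 8.95 in MSC III and at 5.91 and 6.25 in MSC V (3.52 ± 0.41, limma adjusted p = 0.0052). Igf2r, the receptor that clears this factor from the surface and is itself imprinted, stood at 10.51 and 10.40 against 8.97 and 9.11 (1.41 ± 0.13, limma adjusted p = 0.00166). Igfbp6, a binding protein with a preference for the same factor, stood at 8.96 and 9.68 against 6.31 and 6.01 (3.16 ± 0.24), and passed the filter through MSC III alone. All 3 were higher in MSC III. Igf2bp3, an RNA-binding protein that binds the Igf2 message, went the other way, at 7.80 and 7.18 in MSC III and 9.66 and 9.90 in MSC V (-2.29 ± 0.25, limma adjusted p = 0.00383). Its relative Igf2bp1 differed by -1.97 ± 0.37 (limma adjusted p = 0.035) and lost the call with any 1 array of MSC II, III or V left out, where the adjusted p of limma was 0.0569 to 0.158. Of 20 tested members of the insulin-like growth factor list 3 were called in each direction, against 1.03% and 1.04% of all tested genes, with a median of 0.40. These counts include Igfbp6, which had to differ. Igfbp5 (2.90 ± 0.79, limma adjusted p = 0.0887) was not called, its arrays of MSC III standing at 7.06 and 9.78. Fitted on the 4 arrays alone, Igf2 was no longer called.

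**Figure D2:**
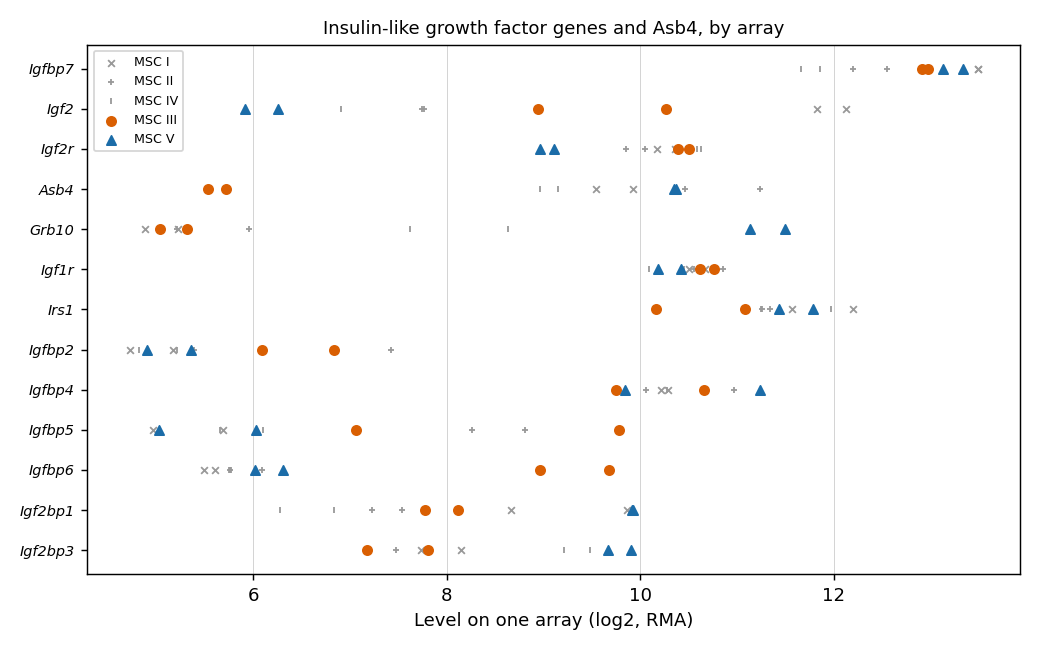
Level on each array (log2, horizontal axis) of genes of the insulin-like growth factor list and of Asb4. Orange circles are MSC III, blue triangles MSC V and grey marks the 6 arrays of MSC I, II and IV. Grb10 lies at 11.14 and 11.50 in MSC V and at 5.03 and 5.31 in MSC III, and Igf2 lies higher in MSC III.

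Beyond these lists, the genes with the largest differences were of many kinds, with adhesion, matrix and secreted proteins and transcription factors among them. The largest value belonged to a probe set annotated to Kcnma1, a potassium channel, at 13.54 and 14.12 in MSC III and at 5.61 and 5.52 in MSC V (8.27 ± 0.54, limma adjusted p = 0.000472). That annotation was in doubt. The probe set lists 0 RefSeq transcripts, and its 10 nearest named probe sets by identifier, among them those of Fanca and Dbndd1, belong to genes of chromosome 8, while Kcnma1 lies on chromosome 14. The other probe set annotated to Kcnma1, with 17 RefSeq transcripts, was low on all 4 arrays (5.10 to 5.66) and differed by 0.27. No statement about the channel rests on the first probe set, which was also high in MSC II (13.79 and 14.22). Of the 227 called genes only this one had at least 8 of its 10 nearest probe sets on another chromosome, against 272 of all tested genes.

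Among genes higher in MSC III, Tnn, the matrix protein tenascin-W, stood at 10.59 and 10.20 against 7.03 and 6.70 in MSC V (3.53 ± 0.28, limma adjusted p = 0.000913). Lama2, a laminin chain of basement membranes, stood at 9.12 and 9.21 against 7.10 and 7.12 (2.06 ± 0.14, limma adjusted p = 0.000628). Both genes lay higher on both arrays of MSC III, and with Lama1 they made the 3 called members of 46 tested matrix glycoproteins, whose median was -0.08. Over all tested genes 1.03% were called in that direction. Lama1 (3.12 ± 0.49) lost its call with any 1 of the 4 arrays of MSC III and V left out, with an adjusted p of limma of 0.062 to 0.143. Collagens with collagen maturation enzymes (36 tested), proteoglycans and hyaluronan genes (20) and metalloproteases of the MMP, ADAM and ADAMTS families (21) had 0 called members. With 2.07% of all tested genes called, lists of this size hold few calls or none, and the 0 is no result about them.

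Nlrp2, an innate immune sensor family member, stood at 9.45 and 8.33 in MSC III and at 4.88 and 5.19 in MSC V (3.86 ± 0.34), and passed the filter through MSC III alone. Pcbd1, a cofactor of the transcription factor Hnf1, stood at 9.70 and 8.61 against 5.18 and 5.14 (3.99 ± 0.44, limma adjusted p = 0.00441). The lower group was under the table's median for both genes. Hspb8, a small heat-shock protein, stood at 8.33 and 8.61 against 5.31 and 5.48 (3.07 ± 0.20, limma adjusted p = 0.000458), and MSC III itself was below MSC I, II and IV (9.38 to 10.25). Anpep, the aminopeptidase CD13 used as a stromal surface marker, stood at 9.37 and 9.29 against 6.62 and 6.92 (2.57 ± 0.22, limma adjusted p = 0.00129). All 4 genes were higher in MSC III. Anpep was the 1 called of 19 tested stromal surface markers, whose median was -0.08, where 1.03% of all tested genes were called higher in MSC III. Zfp991 (4.54) and Zfp760 (3.22) were also called higher in MSC III, but belong to a large zinc finger family whose members may share probes.

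Among genes higher in MSC V, 3 of 31 tested adhesion genes were called, against 1.04% of all tested genes, and 0 were called higher in MSC III, with a median of -0.16. Cdh18, a cadherin better known from neurons, stood at 8.27 and 8.98 in MSC V and at 5.12 and 5.11 in MSC III (-3.51 ± 0.23), and its other probe set differed by -1.78. Cadm1, an adhesion molecule of the immunoglobulin family, stood at 9.11 and 9.34 in MSC V and at 6.39 and 6.05 in MSC III (-3.01 ± 0.32, limma adjusted p = 0.00383). Cdh18 was low on all 8 arrays outside MSC V and passed the filter through MSC V alone, and the count of 3 includes it. Cdh13 (-2.83 ± 0.37) lost its call without replicate 1 of MSC III and without replicate 2 of MSC V (adjusted p of limma 0.0768 and 0.0688).

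Ebf3, a transcription factor of marrow stromal cells that keeps the blood niche open, stood at 9.07 and 8.73 in MSC V and at 5.54 and 5.26 in MSC III (-3.50 ± 0.26, limma adjusted p = 0.000765). It was low in MSC IV as well (5.21 and 5.26) and high in MSC I and II (9.41 to 10.21). Of 11 tested niche factors Ebf3 was the 1 called, where 1.04% of all tested genes were called higher in MSC V. The median difference of the 11 was 0.44, on the side of MSC III. Itgbl1, an integrin-related secreted protein, stood at 8.97 and 10.12 in MSC V and at 5.45 and 5.23 in MSC III (-4.20 ± 0.35). Itgbl1 passed the filter through MSC V alone and was not tested without an array of it. Mecom, a transcription factor of blood stem cells, differed by -2.45 ± 0.28 (limma adjusted p = 0.00465), and by -0.63 on its other probe set, which was low. Epha7, a guidance receptor, stood at 7.64 and 8.30 in MSC V and at 5.30 and 5.12 in MSC III (-2.76 ± 0.22, limma adjusted p = 0.000913). Angpt2, a secreted ligand that loosens blood vessels, stood at 7.75 and 8.22 against 6.26 and 6.13 (-1.78 ± 0.17, limma adjusted p = 0.00224), far under MSC I (12.98 and 12.72). All of these genes were higher in MSC V than in MSC III.

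Cd68, a lysosomal protein used as a macrophage marker, was called higher in MSC V, at 8.53 and 8.55 against 6.60 and 6.87 (-1.81 ± 0.17, limma adjusted p = 0.0019). Of the 10 macrophage markers 8 were at or below 6.55 on all 4 arrays, Adgre1 (4.97 to 5.01), Csf1r and Itgam among them. The mean level of the 10, which includes Cd68, was 5.32 to 5.33 on the arrays of MSC III and 5.57 to 5.63 on those of MSC V.

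Of the 20 genes with the largest differences in each direction, 14 of those higher in MSC III and 13 of those higher in MSC V kept their call in every fit without 1 array that tested them. The fits without an array of MSC III or V called fewer: without replicate 1 and replicate 2 of MSC III 12 and 11 of 17 tested genes higher in MSC III, and without replicate 1 and replicate 2 of MSC V 11 and 11 of 17 tested genes higher in MSC V. Without an array of MSC I, II or IV 16 to 20 of the 20 were called in each direction. The weakest were Parm1 and Crabp1, whose adjusted p of limma rose to 0.242 and 0.274. For 16 and 15 of the 20 the lower preparation lay at or under the table's median, so that their differences are limited by the low end of the scale. Of the 227 called genes 21 were not tested in some fit without 1 array, which therefore could not cost them their call. Among the largest differences these were Nlrp2, Igfbp6, Tfap2a, Itgbl1, Cdh18 and Hoxa13, each untested without an array of its higher preparation. Over all, 85, 88, 111 and 100 genes were called without replicate 1 or 2 of MSC III and replicate 1 or 2 of MSC V, and 66 of the 227 kept their call in every fit that tested them.

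**Figure D3:**
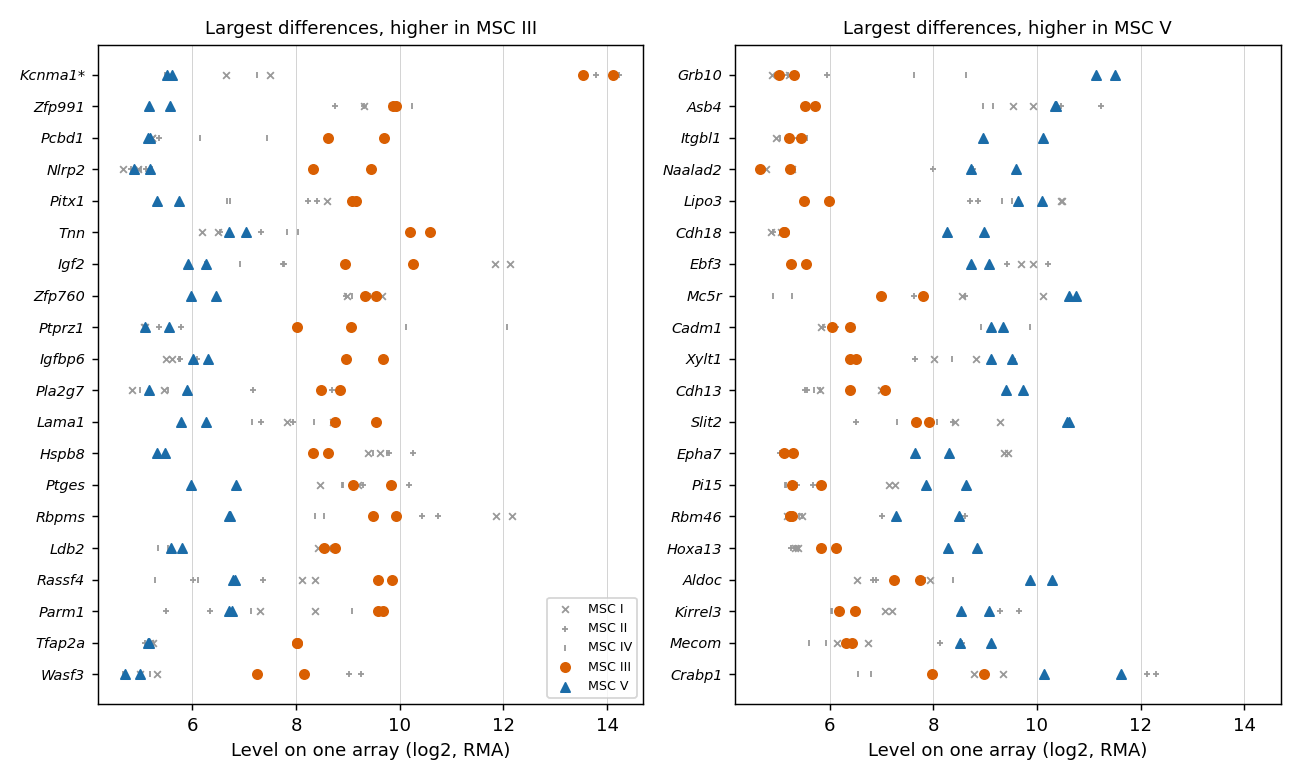
Level on each array (log2, horizontal axis) of the 20 genes with the largest called differences in each direction, in order of size. Orange circles are MSC III, blue triangles MSC V and grey marks the other 6 arrays; the asterisk marks the probe set whose annotation to Kcnma1 is in doubt. The 40 were taken from the 227 called genes, for all of which the arrays of MSC III and MSC V do not overlap, and the other preparations lie on either side.

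Xist, the RNA that silences an X chromosome in female cells, was higher in MSC III, at 12.47 and 12.58 against 10.47 and 10.24 in MSC V (2.17 ± 0.17, limma adjusted p = 0.000913). MSC I and II resembled MSC III (12.13 to 12.52), and MSC IV was lower still (9.62 and 9.71). The 353 tested genes of the X chromosome had a median difference of 0.00, with 50.1% of them higher in MSC III.

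Where the called genes placed the pair among the 5 preparations varied. Of the 113 genes higher in MSC III, MSC III alone lay above all other arrays for 23, MSC V alone lay below all others for 35, both held for 5 and neither for 50. Of the 114 higher in MSC V, MSC V alone lay above all others for 59, MSC III alone below all others for 16, both held for 1 and neither for 38. Over both directions MSC V alone was outlying for 94 of the 227 genes and MSC III alone for 39. These counts include the 8 and 10 genes that passed the filter through MSC III alone or MSC V alone, which had to be outlying. The same positions were not counted over all tested genes, so that the numbers describe the called genes only.

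Several lists had 0 called members, which is near the background for lists of their size and no result about them. The list of DNA replication and mitosis genes (56 tested, median -0.08), the osteoblast list (28 tested, median -0.08), the genes of the BMP and TGF-beta pathways (47, -0.09), contractile genes (22, -0.03), Notch genes (11, 0.04) and ribosomal proteins (14, 0.05) were among them, where 2.07% of all tested genes were called. A missing call does not show that levels were equal: Alpl, the alkaline phosphatase of bone-forming cells, stood at 11.79 and 10.46 in MSC III and at 6.53 and 8.91 in MSC V (3.40 ± 0.95, limma adjusted p = 0.0944). The 17 tested genes of cholesterol synthesis all had a negative difference, from -1.37 to -0.17 with a median of -0.58, and 0 were called. For the 14 ribosomal proteins all 95% intervals lay within 1 log2.

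Genes of whole chromosomes also differed together between MSC III and MSC V. The 378 tested genes of chromosome 12 had a median difference of 0.42 log2, and 86.8% of them were higher in MSC III, against 52.2% of all tested genes. The 4 pairs of an array of MSC III with an array of MSC V gave medians of 0.36 to 0.46, while the 2 replicates differed by 0.01 in MSC III and by 0.08 in MSC V. Chromosome 13 (-0.29, pairs -0.36 to -0.27) and chromosome 1 (-0.25, pairs -0.29 to -0.21) were lower in MSC III, and chromosome 6 (0.21, pairs 0.15 to 0.24) was higher. Replicates of a preparation differed by -0.15 to 0.12 over the 20 chromosomes, and 6 chromosomes had a median larger than that in size. These are medians over genes with no test, since genes of a chromosome share the same arrays, and the cause was not tested. Without genes whose probe set lay among those of another chromosome the 4 medians kept their signs.

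**Figure D4:**
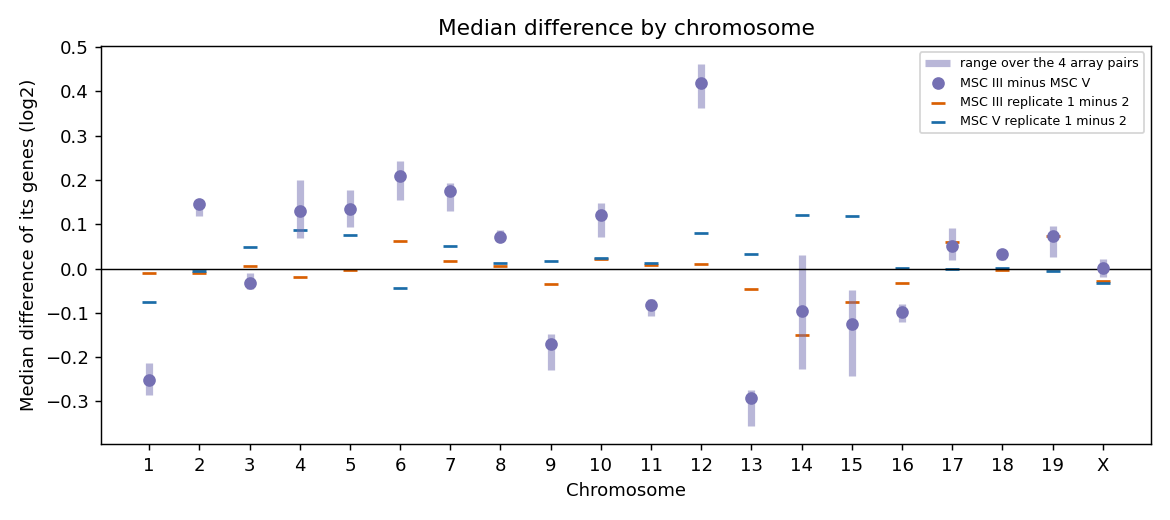
Median difference between MSC III and MSC V of the tested genes of each chromosome (log2, points), with the range over the 4 array pairs (bars) and the difference between the replicates of each preparation (dashes). Chromosome 12 lies at 0.42, apart from the replicate differences.

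Chromosomes were also divided, after the medians above were seen, into 6 runs of equal gene number in gene order. On chromosome 2 the first 4 runs, from Fam171a1 to Nop56, had medians of 0.32, 0.29, 0.28 and 0.28 log2 (MSC III minus MSC V), and the last 2, from Snord57 to Polr3k, had medians of -0.21 and -0.21. On chromosome 9 the first run, from Alkbh8 to Nfrkb (104 genes), had a median of -0.51, with array pairs from -0.55 to -0.47. It was named for this median, the lowest of all runs. The run held 5 genes called higher in MSC V and 0 called higher in MSC III, against 1.04% and 1.03% of all tested genes. This count was not tested. The other runs of chromosome 9 had medians of -0.15 to -0.06. On chromosome 12 all 6 runs were positive, from 0.29 to 0.58, and on chromosome 13 all were negative, from -0.37 to -0.21.

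**Figure D5:**
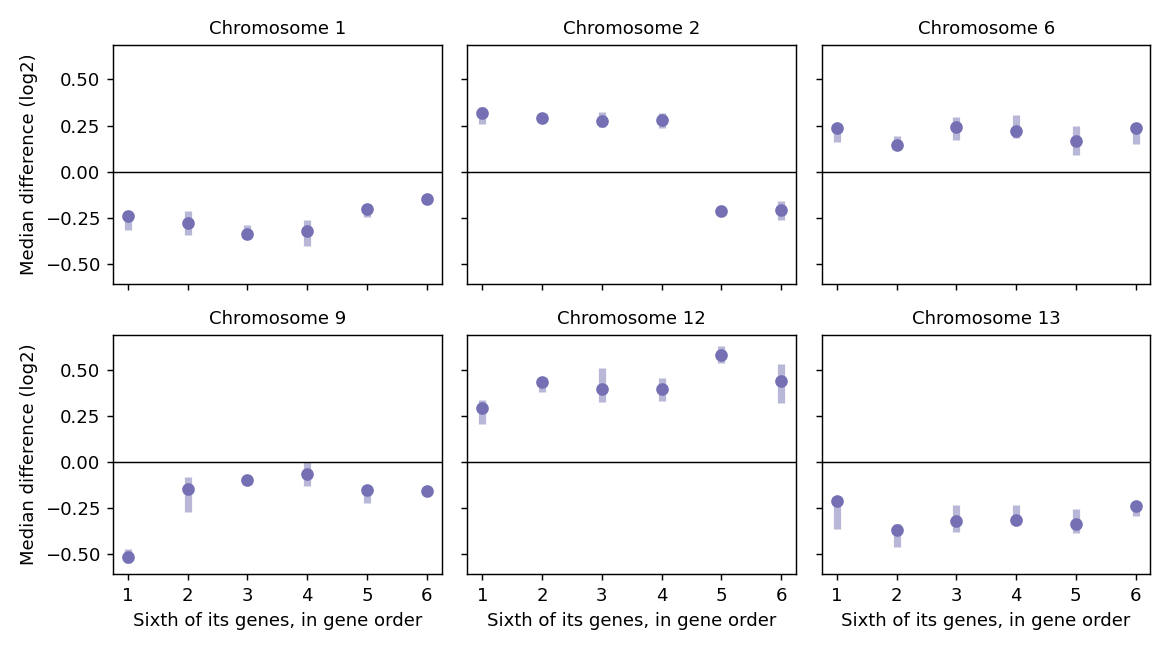
Median difference between MSC III and MSC V (log2, points) of the tested genes in each of 6 runs of equal gene number along 6 chromosomes, with the range over the 4 array pairs (bars). Chromosome 2 changes sign between its first 4 runs and its last 2, and chromosome 9 is lowest in the first.

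Of the 227 called genes 139 (61.2%) lay on the side of their chromosome's median and 88 on the other, against 66.3% on the same side among all tested genes. Pitx1 and Tfap2a, higher in MSC III by 3.59 and 2.87, lie on chromosome 13, whose median was -0.29. Pax9, higher in MSC V, lies on chromosome 12, whose median was 0.42. The Hoxc cluster lies on chromosome 15 (median -0.13), the Hoxb cluster on chromosome 11 (-0.08) and the Hoxa cluster on chromosome 6 (0.21). Of 899 tested genes of chromosome 11, 16 (1.78%) were called higher in MSC V and 2 (0.222%) higher in MSC III. Chromosome 9 held 11 (1.78%) and 1 (0.162%) of 619, and chromosome 2 held 8 (0.917%) and 18 (2.06%) of 872. Over all tested genes 1.04% and 1.03% were called, and the spread of calls over chromosomes was not tested. The 16 of chromosome 11 include the 5 called Hoxb genes, and 9 of the 16 lay in 1 run of genes, from Spag5 to Cbx1. That run held 150 tested genes and was named for this count.

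What MSC III and MSC V shared was set against MSC I, II and IV, a contrast that does not use their difference. In all, 81 genes (0.738% of those tested) were called with all 4 arrays outside the range of the other 6, 65 of them higher (0.592%) and 16 lower (0.146%). The filter on low values also let in genes through the arrays of MSC III and V alone. Such genes had to be higher here, and the 65 include them, so that these counts are a description. Mfap5, a protein of elastic microfibrils, stood at 9.96 to 10.77 on the 4 arrays and at 5.48 to 8.59 on the other 6 (3.54 ± 0.14, limma adjusted p = 3.14e-05). Epha3, a guidance receptor, stood at 9.11 to 10.62 against 5.63 to 7.79 (3.65 ± 0.30, limma adjusted p = 0.000417). Cd59a, which protects cells from complement, was lower, at 6.41 to 6.98 against 10.33 to 11.05 (-4.00 ± 0.11, limma adjusted p = 1.12e-05). These 3 genes were not called between MSC III and MSC V. Hoxa11 was higher in both preparations than in the others (7.44 to 9.28 against 5.10 to 5.72), and higher in MSC V than in MSC III as given above. Hspb8 was lower in both than in the others, and lower in MSC V than in MSC III.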

How the data were processed

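The authors deposited log2 expression values of 35399 probe sets on 10 arrays, made from biotin-labelled total RNA. RMA and Partek were used per the submitters' processing notes, in versions and with a genome build not given in the sources used here. The RMA method corrects background, normalises arrays by quantiles and summarises probes on the log2 scale, which compresses low values. Median levels of the arrays were 6.45 to 6.63. Arrays were grouped by their titles. Probe sets with 1 gene symbol (21789, of which 21698 matched RefSeq, GRCm38.p6) were kept, and for 999 genes with several, that with the highest mean stood for the gene. Genes with at least 2 arrays above the table's median were tested.

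Preparation means were fitted over all 10 arrays in limma 3.58.1 (lmFit, eBayes; R 4.3.3), and tables were made in Python 3.11.15. The two-sided p-values were adjusted by Benjamini-Hochberg over all tested genes. Errors are SE of the fit. The rule for named genes took the 20 largest called differences in each direction whose arrays did not overlap, without predicted, clone or small RNA names, the 6 largest in each direction of the shared contrast, and allowed any member of 41 gene lists. Of 1382 listed genes 104 had no probe set of that symbol alone and were not analysed here. The members and lists were chosen with earlier results of these data known. The fit was checked on simulated data. Alternatives were other filters on low values, the mean of probe sets, another quantile normalisation, centring of each array on its median, trend and robust eBayes, the arrays of the pair alone, a replicate block, other minimum differences and each array left out in turn. Further alternatives, on the Kcnma1 probe set and on genes placed on a chromosome, were chosen after seeing the data.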

Additional observations from a re-analysis of the deposited data

How the results depend on the processing

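The counts of called genes depended on the arrays and filters. With all 10 arrays 227 genes were called, 113 higher in MSC III and 114 higher in MSC V. The stricter filter on low values gave 105 (51 and 54), and the 4 arrays of the pair alone 132 (72 and 60). No minimum difference gave 394 (198 and 196), and a minimum of 2 log2 gave 77 (47 and 30). Leaving out each array in turn gave 85 to 223 called genes (41 to 109 higher in MSC III and 39 to 114 higher in MSC V), 7009 to 8349 genes with the 95% interval within 1 log2, and 69 to 77 genes shared against the other preparations. With no filter on low values 17143 genes had the interval within 1 log2, and with the stricter filter 5464, since the number of genes tested differed. The shared contrast gave 36 genes with the stricter filter, 252 with no minimum difference and 21 with a minimum of 2 log2.

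The replicate block gave 135 called genes (74 higher in MSC III and 61 higher in MSC V), among them 2 Hoxb genes higher in MSC V and 6 Hoxc genes higher in MSC III. Nothing in the labels ties arrays of the same number together, and the deviations of same-numbered arrays of MSC III and MSC V correlated at -0.507 across genes. None of the 91 genes followed individually changed sign under these alternatives, and with the 4 arrays alone 27 of those tested lost their call. The sign says little here. For every called gene both arrays of 1 preparation lay above both of the other, so that leaving out 1 array could not change it. The second Kcnma1 probe set gave a difference of 0.27. Over all alternatives the median difference of chromosome 12 was 0.18 to 0.46, of chromosome 13 -0.37 to -0.11, of chromosome 1 -0.32 to -0.07 and of chromosome 6 0.06 to 0.22. The cause of these changes was not tested where the alternative itself does not set it.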

Other observations

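Of 24 tested calcium, sodium, chloride and other non-potassium channel genes 3 were called higher in MSC III and 1 higher in MSC V, and of 5 tested transmitter receptors 2 were called higher in MSC III and 0 higher in MSC V, against 1.03% and 1.04% of all tested genes. Gabrb1, 1 of the 2 called receptors, passed the filter on low values through MSC III alone and had to differ, so that this count is a description. P2rx7, an ATP-gated channel, stood at 7.50 and 7.60 in MSC III and at 5.25 and 5.29 in MSC V (2.28 ± 0.17), and passed the filter on low values through MSC III alone. Gria3, a subunit of a glutamate receptor, stood at 8.36 and 7.62 against 5.15 and 5.14 (2.84 ± 0.26, limma adjusted p = 0.00164). P2rx7 and Gria3 were both higher in MSC III. Lgr6, a receptor for R-spondins that raise Wnt signalling, was higher in MSC V, at 8.02 and 8.22 against 5.94 and 5.64 (-2.33 ± 0.23, limma adjusted p = 0.00227). It was the called member of 45 tested Wnt genes, a share near the 2.07% of all tested genes. Sema3f, a secreted semaphorin, was higher in MSC V, at 10.15 and 9.77 against 8.01 and 8.34 (-1.78 ± 0.20, limma adjusted p = 0.00465). Guidance genes went both ways: of 36 tested 2 were called higher in MSC III and 3 higher in MSC V, with a median of -0.06. Over all tested genes 1.03% and 1.04% were called. Epha4 (1.37) was among those higher in MSC III.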
